A study of Rapana venosa with 9 samples.

Results

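The miR-1175 and miR-750 families of the veined rapa whelk (Rapana venosa), a predatory marine snail, were followed through metamorphosis in 9 small RNA libraries. The members are all miRNA references named miR-1175 or miR-750 in the deposited count table, which gave 3 of 918 references, miR-1175-x, miR-1175-y and miR-750-y. All 3 passed the filter on low counts that 214 references passed. The libraries came in 3 groups of 3 biological replicates, precompetent larvae (Pre-CL 1 to 3, planktonic larvae with 3 spiral whorls), competent larvae (CL 1 to 3, with 4 spiral whorls and able to metamorphose) and postlarvae (PL 1 to 3, juveniles after metamorphosis). The parents were wild snails from Laizhou Bay, China, and the planktonic larvae of the 2 earlier stages were reared in pools on a mixed diet of microalgae. A replicate was described as 40 to 100 individuals, but the extraction protocol has the RNA come from an individual intestine, and the files do not show which of the descriptions applies. No treatment is named for any stage, and stage was the one labelled difference between the groups. The paper does not state how metamorphosis was brought about or what the postlarvae were fed.

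A miRNA is cut from a hairpin precursor as a duplex of its 5′ and 3′ arms, and one strand is loaded into an Argonaute protein while its partner is usually degraded. The loaded strand pairs with messenger RNAs mainly through its seed, bases 2 to 8, and lowers their translation or stability. miR-750 and miR-1175 are known from protostome animals such as insects and molluscs, where their hairpins often lie near each other in the genome, and in mosquitoes miR-1175 has been described in the midgut. Whether the hairpins lie together in the rapa whelk was not analysed here.

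The sequences of the members are shown because they bear on how miR-1175-x and miR-1175-y pair and on which other references share a target seed. They are the authors' references, written 5′ to 3′ with the seed in capitals.
miR-1175-x: aGTGGAGAgagttttatctcatc
miR-1175-y: tGAGATTCaactcctccaactgc
miR-750-y: cCAGATCTaactcttccagctc
miR-755-y: tGAGATTCaactcctacaactgt
The last of these is not a member, but it was the 1 other reference with the seed of miR-1175-y. It had the same base as miR-1175-y at 21 of 23 positions, with C16A and C23T as the differences (the base of miR-1175-y first, positions from 1 at the 5′ end). The authors aligned tags with up to 2 mismatches, and miR-755-y was the 1 reference within that distance of miR-1175-y, so the counts of these 2 references cannot be fully told apart. No other reference lay within 2 mismatches of miR-1175-x or of miR-750-y, and neither seed occurred in another reference.

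The letters x and y are not explained in the sources used here. Folded against each other, miR-1175-x and miR-1175-y formed 18 base pairs over bases 1 to 22 of each strand, with a computed energy of -21.9 kcal/mol and 1 unpaired base at each 3′ end. miR-1175-x with miR-750-y formed 14 pairs at -14.9 kcal/mol. The miR-1175 references can thus pair along most of their length, and on that ground they are called arms here. No pairing with further references was computed for comparison, and the hairpin was not available. Which of them comes from the 5′ arm of the hairpin was not determined. Aligned from their first bases, miR-1175-y and miR-750-y shared 15 of 22 positions and 4 of 7 seed bases, and their longest common run from position 9 was aactc, of 5 bases. No miR-750-x reference was in the table.

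Between 8235539 and 10694742 clean reads were obtained per library, and 3762511 to 6781384 counts fell on the miRNA references. Known miRNAs took a lower share of clean reads in PL libraries (46.0 to 54.5%) than in CL (58.1 to 65.5%) or Pre-CL libraries (63.4 to 67.4%), and the share of tRNA was higher in PL (0.770 to 0.963%) than in CL (0.0918 to 0.101%) or Pre-CL (0.151 to 0.175%). Reads removed for being under 18 nt made up 14.5% of the high-quality reads in Pre-CL 3 and 19.0% in PL 1. They made up 4.29 to 11.5% in the other 7 libraries. Every PL library had a larger share of them than any CL library (5.46 to 6.26%), while Pre-CL 3 lay above PL 2 and PL 3. The share of rRNA was also higher in PL (6.7 to 9.3%) than in CL (3.2 to 3.9%) or Pre-CL (4.9 to 5.4%). What part these differences had in the changes between PL and CL, those of the arm ratios included, was not tested. Counts are given below as CPM, counts scaled to a common library size by edgeR's TMM method, whose factors lay between 0.733 in Pre-CL 3 and 1.50 in PL 2. A reference was called at a Benjamini-Hochberg adjusted p under 0.05, over all 214 tested, together with a fold change over 2. The spread between the 3 libraries of a stage came to a biological coefficient of variation of 0.456 over the references.

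miR-1175-y was the more abundant arm of its pair in every library. Its counts were 3899, 3307 and 1074 in Pre-CL 1 to 3, 2266, 3365 and 2315 in CL 1 to 3, and 32571, 66431 and 71929 in PL 1 to 3. In CPM these were 729, 532 and 248 in Pre-CL, 335, 636 and 522 in CL, and 6519.8, 8830.7 and 11388 in PL. The larval stages overlapped, and every PL library was far above every larval one. In bulk RNA, a change in the share of the cells that carry a miRNA and a change in its amount per cell cannot be told apart. By count, miR-1175-y ranked 43 to 51 among the references in Pre-CL libraries, 46 to 48 in CL and 20 to 23 in PL.

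miR-1175-x, its partner strand, was the scarcest member. The counts were 502, 675 and 200 in Pre-CL, 364, 279 and 208 in CL, and 1922, 2081 and 2475 in PL. They correspond to 93.9, 108.5 and 46.3 CPM in Pre-CL, 53.8, 52.8 and 46.9 CPM in CL, and 385, 277 and 392 CPM in PL. The PL libraries again lay above all 6 larval ones, while Pre-CL 3 fell below the 3 CL libraries. The rank by count was 62 to 74 in Pre-CL, 68 to 70 in CL and 51 to 55 in PL.

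miR-750-y was among the most abundant miRNAs of the whelk at all stages. Its counts were 249809, 281882 and 343925 in Pre-CL, 333490, 379754 and 322218 in CL, and 158716, 213326 and 263279 in PL. The levels were 46729.7, 45312 and 79553 CPM in Pre-CL, 49312, 71827 and 72675 CPM in CL, and 31771, 28357.5 and 41682 CPM in PL. Each PL library was below each larval one after TMM scaling, the opposite placement to that of the miR-1175 arms. Scaled to total counts without TMM, the levels were 40871, 45526 and 58331 CPM in Pre-CL, 49177, 56698 and 62807 CPM in CL, and 42183.5, 42427 and 47808 CPM in PL, so that PL overlapped Pre-CL and stayed below CL. miR-750-y ranked 6 to 11 in Pre-CL, 3 to 6 in CL and 8 to 10 in PL.

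**Figure D1:**
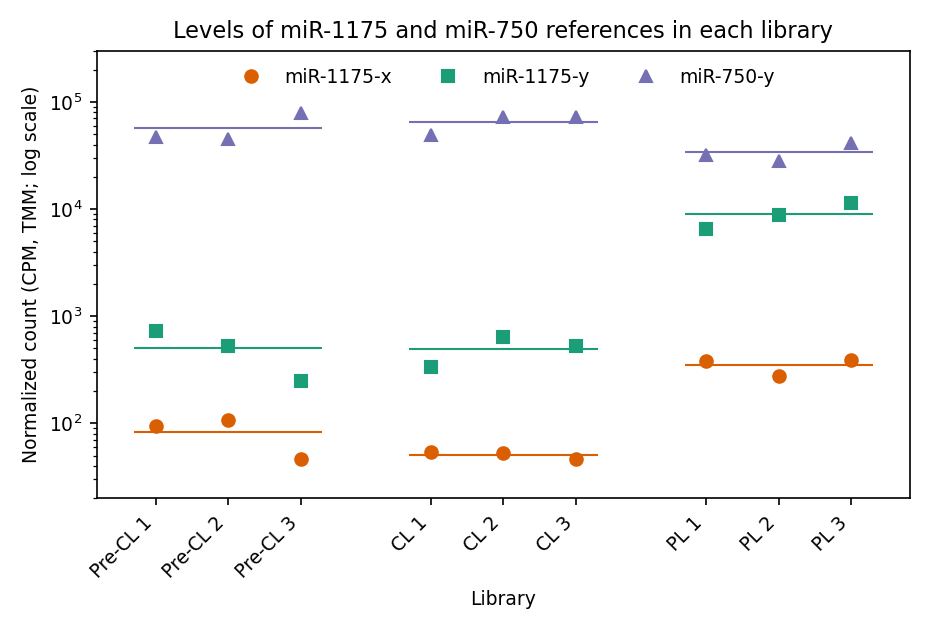
Normalized counts of miR-1175-x (circles), miR-1175-y (squares) and miR-750-y (triangles) in the 9 libraries, in CPM after TMM scaling on a log axis, with a line at the mean of each stage. The miR-1175-y points of PL lie between 6519.8 and 11388 CPM, above its larval points of 248 to 729 CPM, and the miR-750-y points of PL lie below its larval points under this scaling.

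The stage means gave an order of levels for each member. miR-1175-y averaged 503 ± 242 CPM in Pre-CL, 498 ± 152 CPM in CL and 8913 ± 2435 CPM in PL (SD, n = 3 each), so that the larval means differed by less than their spread. miR-1175-x averaged 82.9 ± 32.6, 51.2 ± 3.72 and 351 ± 64.6 CPM in Pre-CL, CL and PL, and its larval means also lay within 1 SD of Pre-CL. miR-750-y averaged 57198 ± 19373, 64604 ± 13250.4 and 33937 ± 6921 CPM in the same order of stages.

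Metamorphosis itself is the comparison of postlarvae with competent larvae. There, 2 of the 3 members were called higher and 1 was not called, against 22.4% of all tested references called higher, 14.5% called lower and 36.9% called in either direction. miR-1175-y was 17.9-fold higher in PL than in CL (95% interval 8.74 to 36.7, log2 fold change 4.16, SE 0.46, adjusted p = 1.6e-04 in edgeR's quasi-likelihood test). miR-1175-x was 6.86-fold higher (3.98 to 11.8, log2 fold change 2.78, SE 0.35, adjusted p = 3.8e-04). Both arms of miR-1175 thus rose, the more abundant one by the larger estimate.

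miR-750-y was not called between PL and CL, because its change was under the 2-fold limit. Its level was 1.90-fold lower in PL (log2 fold change -0.93, SE 0.28, adjusted p = 0.024). Single libraries decided on which side of the limits it fell. Left out in turn, CL 1 gave a log2 fold change of -1.07 and PL 3 one of -1.16, both called, while without CL 2, CL 3, PL 1 or PL 2 the adjusted p was between 0.094 and 0.13. With total counts as library size in place of TMM the value was -0.35 (adjusted p = 0.11).

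The scaling of the libraries moved all references together. The median log2 fold change of the 214 references between PL and CL was 0.20 with TMM, 0.49 with clean reads as library size, 0.76 with miRNA tags and 0.79 with total counts. Relative to that median, miR-1175-y stood at 3.96 to 3.99, miR-1175-x at 2.54 to 2.58 and miR-750-y at -1.13 to -1.14 on the log2 scale under these 4 scalings. These values are nearly equal by construction, since another library size shifts all references by about the same amount, so they give the level of each member relative to the rest and are no check of the scaling.

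Postlarvae against precompetent larvae spans both steps of development and shares its PL libraries with the comparison above. Again 2 of 3 members were called higher, against 28.5% of all references called higher, 22% called lower and 50.5% called in either direction. miR-1175-y was 17.7-fold higher in PL than in Pre-CL (8.65 to 36.3, log2 fold change 4.15, SE 0.46, adjusted p = 1.6e-04). miR-1175-x was 4.23-fold higher (2.49 to 7.18, log2 fold change 2.08, SE 0.34, adjusted p = 9.98e-04). miR-750-y was 1.69-fold lower and not called (log2 fold change -0.75, SE 0.28, adjusted p = 0.042), and its log2 fold change shrank to -0.13 (adjusted p = 0.53) with total counts as library size.

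Competent against precompetent larvae asks what changes while the larva becomes able to settle. No member was called between these stages, against 10.3% of all references called higher, 9.35% called lower and 19.6% called in either direction by edgeR, and no member had an unadjusted p under 0.05 in it. The log2 fold change of miR-1175-y was -0.02 (SE 0.40, adjusted p = 1), and its interval of 0.526- to 1.86-fold spans changes in both directions. miR-750-y had a log2 fold change of 0.18 (SE 0.28, adjusted p = 0.71), with an interval of 0.733- to 1.74-fold.

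miR-1175-x had a log2 fold change of -0.70 between CL and Pre-CL (SE 0.33, adjusted p = 0.17, interval 0.370- to 1.03-fold). The value moved with single Pre-CL libraries in both directions, to -0.38 without Pre-CL 2 (adjusted p = 0.50) and to -1.01 without Pre-CL 3, where it was called (adjusted p = 0.0098). Pre-CL 3 had the lowest level of both miR-1175 arms, the highest level of miR-750-y and 14.5% of reads under 18 nt, whose part in this was not tested.

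**Figure D2:**
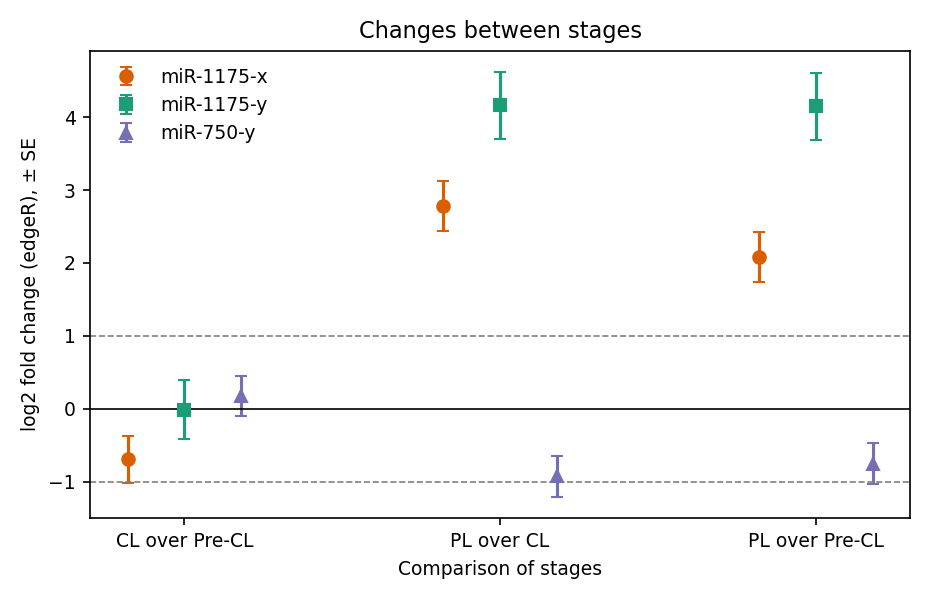
Log2 fold changes of the 3 members in the 3 comparisons of stages, with standard errors as bars, from edgeR's quasi-likelihood fit of all 9 libraries. The dashed lines mark the 2-fold limit, beyond which both miR-1175 references lie in both comparisons with PL (2.08 to 4.16), while miR-750-y lies at -0.93 and -0.75.

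The balance between the arms of miR-1175 differed between the stages. The count of miR-1175-y over that of miR-1175-x, in which library size drops out, was 7.76, 4.90 and 5.36 in Pre-CL, 6.22, 12.04 and 11.1 in CL, and 16.9, 31.9 and 29.1 in PL. The ratio of each PL library was above those of all larval libraries, while CL 1 lay within the range of Pre-CL. miR-1175-x made up 11.4, 17.0 and 15.7% of the pair in Pre-CL, 13.8, 7.66 and 8.24% in CL and 5.57, 3.04 and 3.33% in PL. The 95% Wilson interval was 5.33 to 5.82% in PL 1, the PL library with the largest share of the x arm, and 6.84 to 8.57% in CL 2, the CL library with the smallest. Each interval rests on the reads of a single library and leaves out the spread between libraries. The reads carry no molecular identifiers, so copies made in amplification count as separate reads.

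The mean ratio was 6.01 ± 1.54 in Pre-CL, 9.79 ± 3.13 in CL and 26.0 ± 7.95 in PL (SD, n = 3 each). The ratio was 2.66-fold higher in PL than in CL (log2 difference 1.41, SE 0.39, adjusted p = 0.0011 in limma over 10 families) and 4.26-fold higher in PL than in Pre-CL (2.09, SE 0.39, adjusted p = 1.1e-05). Between CL and Pre-CL it differed by 0.68 on the log2 scale (SE 0.39, adjusted p = 0.43). The p-values of limma draw on the spread of all families tested and moved with their choice. With families of at least 10 counts per arm, the adjusted p in limma was 0.032 between PL and CL. It was 0.0056 between PL and Pre-CL. The exact two-sided permutation test over libraries gave p = 0.1 for both comparisons with PL, which is the smallest value that 3 libraries against 3 allow. PL 1, with the lowest ratio of its stage, also had the largest share of reads under 18 nt (19.0%). Without PL 1, the log2 difference between PL and CL was 1.70.

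The ratio of y to x also differed between stages in other families, where x and y were paired by name alone and were not checked to be strands of 1 duplex. Of 59 families with references ending in both x and y, 10 had at least 90 counts in each, and 7 of these, or 70%, differed in the ratio between PL and CL at an adjusted p under 0.05. The ratio of y to x was higher in PL in 6 of them, with log2 differences of 3.78 in miR-92, 2.01 in miR-79, 1.66 in miR-9, 1.57 in miR-278, 1.41 in miR-1175 and 1.25 in let-7, and lower in miR-219 (-1.76). The median over the 10 families was 1.33, close to the value of miR-1175. Between PL and Pre-CL, 60% of the families were called and miR-1175 had the second largest difference (median 1.17), and between CL and Pre-CL 0% were called by limma, with 1 family at an unadjusted p under 0.05 (median -0.06).

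**Figure D3:**
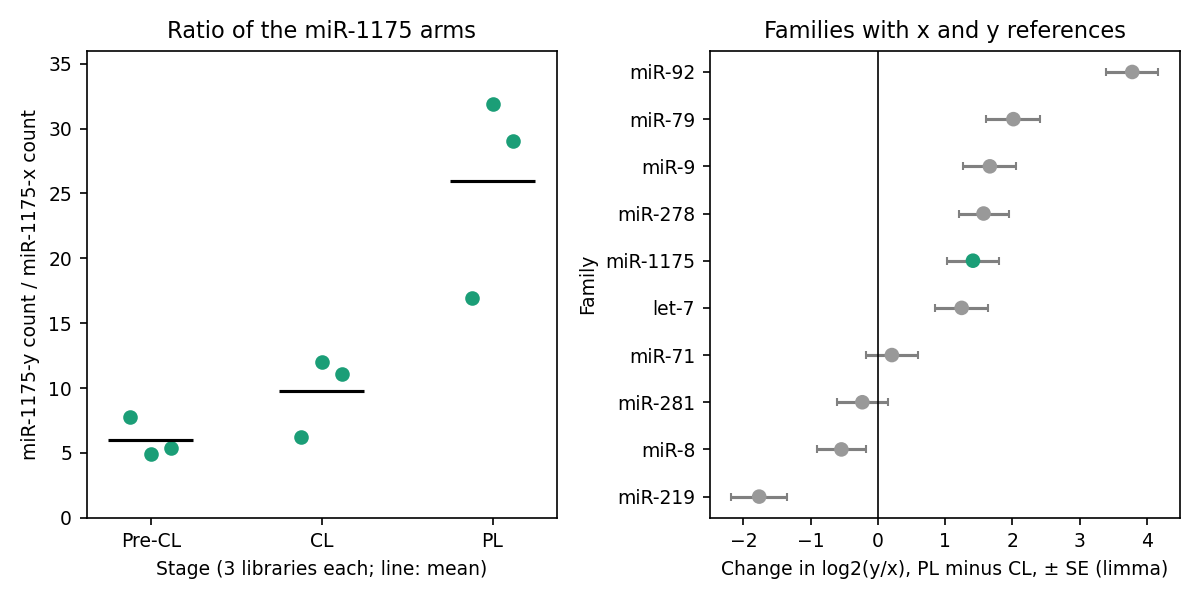
Left, the count of miR-1175-y over that of miR-1175-x in each library by stage, with a line at the stage mean (6.01, 9.79 and 26.0 for Pre-CL, CL and PL). Right, the change of log2(y/x) between PL and CL in the 10 families with enough counts, with standard errors from limma as bars, where miR-1175 stands at 1.41, between miR-278 and let-7.

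Set against each other, miR-750-y and miR-1175-y came closer in the postlarva. The count of miR-750-y over that of miR-1175-y was 64.1, 85.2 and 320 in Pre-CL, 147, 113 and 139 in CL, and 4.87, 3.21 and 3.66 in PL. No PL library approached the larval ratios. The log2 ratio was lower by 5.10 in PL than in CL and by 4.97 than in Pre-CL, with an exact two-sided permutation p = 0.1 each, the smallest possible here, and the log2 difference between CL and Pre-CL was 0.13 (exact permutation p = 1). Counts of different miRNAs also carry each one's own efficiency of adapter ligation, so the ratio is compared between libraries and not read as a ratio of molecules.

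miR-755-y, with the seed of miR-1175-y, was counted 2, 4 and 0 times in Pre-CL, 0, 2 and 2 times in CL, and 51, 124 and 88 times in PL. It was thus nearly absent from larvae and present in every PL library. As a share of the miR-1175-y counts it came to 0.0725% over the Pre-CL libraries, 0.0503% over CL and 0.154% over PL. miR-755-y was called higher in PL than in CL (log2 fold change 5.62, SE 0.89, adjusted p = 0.0012) and than in Pre-CL (5.14, SE 0.85, adjusted p = 0.0011), but with so few larval counts these fitted values depend on the prior count. Whether its tags are molecules of their own or tags of miR-1175-y with mismatches was not tested.

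The references whose levels were most like those of each member were sought over the 9 libraries by Pearson's r of log2(CPM + 1). Because the 9 points are 3 stages of 3 libraries, r mostly reflects the stage means. For miR-1175-x they were miR-1992-y (r = 0.98), a family known from molluscs and annelids, miR-281-y (0.96) and miR-9-y (0.96), a neural miRNA in vertebrates. miR-1992-y averaged 79.6 ± 48.8, 50.4 ± 4.46 and 328 ± 41.5 CPM in Pre-CL, CL and PL, close to the levels of miR-1175-x itself.

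For miR-1175-y they were miR-755-y (0.99), miR-7170-x (0.98) and miR-200-x (0.97), the last of a family expressed in epithelia of vertebrates. miR-7170-x and miR-200-x had 0 counts in all 6 larval libraries. In PL 1 to 3 they had 10, 15 and 17 counts and 14, 31 and 24 counts. Set against the mean of a floor of 3 counts in each CL library, the PL mean was 3.96-fold higher for miR-7170-x. For miR-200-x it was 6.35-fold higher. These values leave out the spread of the PL counts. For miR-750-y the nearest were miR-96-x (0.96), of a family known from sensory cells of vertebrates, miR-375-y (0.95), known from vertebrate endocrine cells, and a miRNA that the authors predicted (0.92). All 3 were called lower in PL than in CL, with log2 fold changes of -1.50, -1.44 and -1.44. Among the members themselves, r after TMM scaling was 0.95 between the miR-1175 arms, -0.87 between miR-1175-x and miR-750-y and -0.79 between miR-1175-y and miR-750-y. Scaled to total counts, miR-750-y in PL overlapped Pre-CL, and r was not computed under that scaling.

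The members were set beside other families that are found in protostomes and not in vertebrates. Of a list of 14 families, the members' own included, 13 were in the table, with 15 references besides the members, of which 12 were tested. Between PL and CL, 2 of the 12 were called higher and 0 lower, with 10 not called, beside 22.4% and 14.5% of all tested references. Their median log2 fold change was 0.43 beside 0.20 over all tested references. The 2 were miR-317-y (2.26, adjusted p = 0.0038) and miR-307-y. The latter had 0 counts in all larval libraries and 11, 27 and 31 in PL, with a PL mean 6.34-fold above the mean CL floor. The estimate for miR-1175-y (4.16) was larger than that of miR-317-y, and the difference between them was not tested.

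Between PL and Pre-CL, 6 of the 12 were called higher and 3 lower, against 28.5% and 22% of all tested references, with a median of 1.17 beside 0.06 over all tested. Besides miR-307-y and miR-317-y, miR-277-y rose (1.57), a miRNA that controls branched-chain amino acid breakdown in Drosophila, while miR-12-x fell by 2.27 on the log2 scale. Between CL and Pre-CL, 1 of the 12 was called lower, miR-12-x (-1.97), and 0 higher by edgeR, against 9.35% lower and 10.3% higher over all tested, with a median of 0.08 beside -0.29.

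The deposited association table pairs miRNAs with predicted target genes of the whelk transcriptome. It holds 30524 pairs of 195 miRNAs and 11401 genes, with the authors' mean FPKM of each gene per stage from an earlier experiment, without values per library. A target was predicted from a match to the seed and the energy of the duplex, and only pairs with opposite changes of miRNA and gene were kept. Directions of targets are therefore set by that choice and are a description only. Over the 195 miRNAs the number of targets ran between 6 and 895 with a median of 121.

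miR-1175-x had 158 targets (rank 74 of 195 by number) and miR-1175-y had 89 (rank 126). miR-750-y had 0 pairs in the table. The paper built its pairs from the miRNAs it called differentially expressed, so this 0 does not show that miR-750-y lacks predicted targets. The arms shared 9 targets, 5.70% of those of miR-1175-x and 10.1% of those of miR-1175-y, and 238 genes were targets of either. In contrast, miR-1175-y and miR-755-y, with a seed in common, shared 80 targets, 89.9% of those of miR-1175-y and 86.0% of the 93 of miR-755-y. Of the targets of miR-1175-x, 20 were paired with no other miRNA in the table, and of those of miR-1175-y 1 was.

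All 158 targets of miR-1175-x and all 89 of miR-1175-y had a lower mean FPKM in PL than in CL and a higher one in CL than in Pre-CL. Of all 11401 genes of the table, 74.3% were lower in PL than in CL and 60.6% higher in CL than in Pre-CL. The order CL, Pre-CL, PL, highest first, held for 152 and 85 of the targets, and for 22.8% of all genes. The remaining targets of both arms had equal values in Pre-CL and PL. This order is the inverse of the order of the stage means of both arms, so the selection of inverse pairs sets it as well. The genes of the whole table were kept for miRNAs with other patterns too, so their shares are no baseline for it. In PL, 56.3% of the targets of miR-1175-x and 52.8% of those of miR-1175-y were under 0.5 times their CL level, against 46.4% of the genes of the table that were lower in PL. No test was made of these shares. The selection of inverse pairs sets the directions and the order, so their excess over all genes of the table is no result about the targets. It sets the shares under 0.5 times the CL level in part. The median FPKM of the miR-1175-x targets was 6.38, 8.64 and 3.64 in Pre-CL, CL and PL, that of the miR-1175-y targets was 5.70, 8.35 and 4.02, and that of all genes of the table was 4.40, 4.95 and 3.52.

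**Figure D4:**
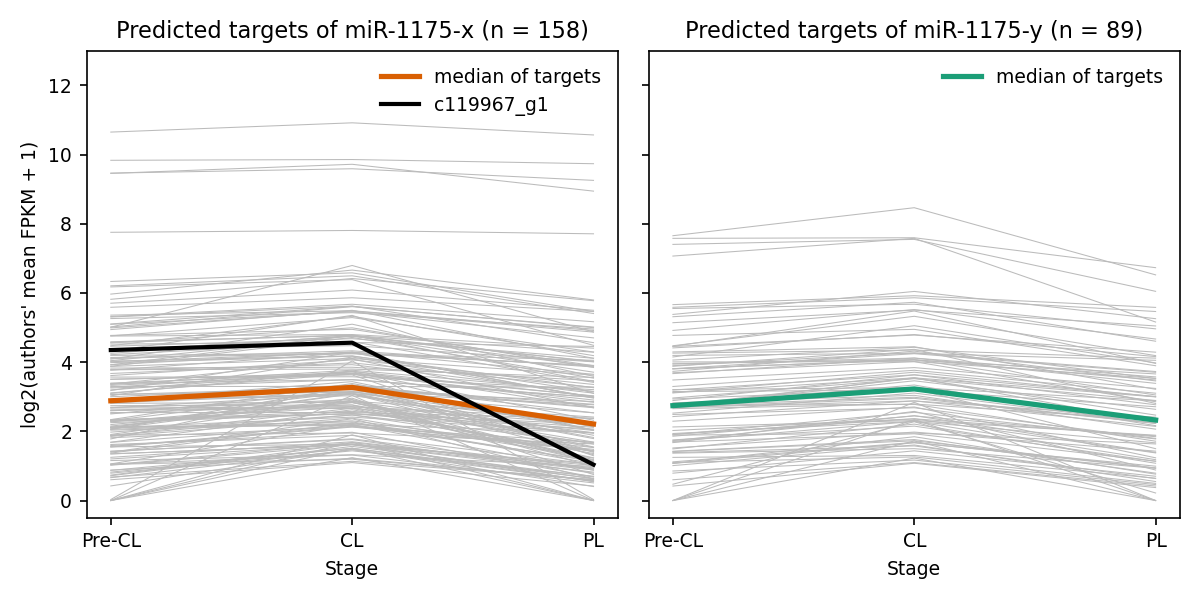
Authors' mean FPKM, as log2(FPKM + 1), of the 158 predicted targets of miR-1175-x (left) and the 89 of miR-1175-y (right) at the 3 stages, 1 thin line per gene, with the median as a thick coloured line and c119967_g1 in black. Every line is lower in PL than in CL, as the selection of inverse pairs requires, and the median FPKM in PL is 3.64 for miR-1175-x and 4.02 for miR-1175-y.

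The target of miR-1175-x that the study names is c119967_g1, described as cysteine-rich secretory protein LCCL domain-containing 2, of a family of secreted proteins. The paper lists this pair under ingestion and digestion and reports an inverse pattern for it in real-time PCR. The mean FPKM of c119967_g1 was 19.4 in Pre-CL, 22.6 in CL and 1.05 in PL, and the gene was paired with no other miRNA. This drop was steeper than that of any of the 10 highest targets with a Swiss-Prot description. Other targets of miR-1175-x fell more steeply. Of its 158 targets, 5 were at 0 FPKM in PL, and c133248_g1 was at 0.02 FPKM in PL against 15.4 FPKM in CL. Among the 10 highest, 60S ribosomal protein L6 (911, 926 and 851 FPKM in Pre-CL, CL and PL) and 40S ribosomal protein S29 (705, 769 and 609 FPKM) are parts of the ribosome. Cytochrome c, which carries electrons in mitochondrial respiration, was at 701, 841 and 491 FPKM. The splicing and RNA-binding proteins SPF27, hnRNP A1 and hnRNP H2 were also among them, with 54.6, 53.8 and 44.2 FPKM in PL against 100.2, 84.5 and 66.8 FPKM in CL.

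The 10 highest targets of miR-1175-y with a Swiss-Prot description were taken in the same way. The mitochondrial NADP-dependent isocitrate dehydrogenase, which makes NADPH, was at 65.1 FPKM in PL against 186 FPKM in CL. Dihydrolipoyl dehydrogenase was at 37.2 FPKM in PL and 65.0 FPKM in CL, and the alpha subunit of the pyruvate dehydrogenase E1 component was at 30.2 FPKM in PL and 50.1 FPKM in CL, both being parts of the complex that turns pyruvate into acetyl-CoA. Calmodulin, the calcium sensor, was the highest of the 10, at 105 FPKM in PL and 192 FPKM in CL. Among the 10, a putative ferric-chelate reductase had the steepest drop, to 34.7 FPKM in PL against 190.1 FPKM in CL. Laminin beta-1, a basement membrane protein, was at 14.6 FPKM in PL and 43.5 FPKM in CL.

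Of the 9 targets of both arms, 5 had a description. Peroxiredoxin-5, which breaks down peroxides in mitochondria, was at 43.1 FPKM in PL and 57.1 FPKM in CL. Ornithine aminotransferase was at 17.2 FPKM in PL and 39.1 FPKM in CL, and the ER lumen protein-retaining receptor 2, which returns proteins to the endoplasmic reticulum, at 13.9 FPKM in PL and 29.9 FPKM in CL. A KIF26B-like kinesin and guanylate kinase, at 1.35 and 0.730 FPKM in PL, were the remaining ones. Each of these 5 genes was paired with 6 to 13 miRNAs of the table in all.

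Descriptions were given for 75 targets of miR-1175-x, 43 of miR-1175-y and 4811 genes of the whole table. Words for cilia, which larvae use to swim and feed, matched 0 of either arm's targets, against 1.56% of all described genes. Words for apoptosis also matched 0 of either, against 0.644%. Digestive enzymes and proteases matched 1 target of miR-1175-x, and 0 of miR-1175-y, against 1.79%. That match was c119967_g1, counted for the words cysteine-rich secretory in the list and described as neither an enzyme nor a protease. Cytoskeleton and adhesion words matched 4 and 3 targets of miR-1175-x and miR-1175-y, against 4.14% of all, among them laminin beta-1 and a C-terminal kinesin, with contactin counted only for the letters of actin in its name.

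Words for receptors, channels and synapses matched 4 targets of miR-1175-x and 2 of miR-1175-y, against 4.18% of all. For both arms the match with the highest mean FPKM was the ER lumen protein-retaining receptor 2 described above. The other match of miR-1175-y was discoidin domain-containing receptor 2, at 0.917 FPKM in PL and 2.21 FPKM in CL. Those of miR-1175-x also include pro-neuropeptide Y, a feeding-related peptide in vertebrates, at 1.23 FPKM in PL and 3.54 FPKM in CL. The receptor kinase ROR1, a further match of miR-1175-x, was at 0.517 FPKM in PL and 1.29 FPKM in CL. Transcription factor words matched 3 targets of miR-1175-x, against 1.54% of all. These were pancreas/duodenum homeobox 1, a gut and pancreas regulator in vertebrates, at 1.69 FPKM in PL and 3.94 FPKM in CL, zinc finger homeobox 3 and SOX-14. The single match of miR-1175-y was a RING and CHY zinc finger protein, a type of ubiquitin ligase. With so few members per group, no group is called over- or under-represented.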

How the data were processed

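Small RNA of 18 to 30 nt was sequenced from 3 stages in 3 libraries each. The deposited counts are the authors' raw tag counts per reference, without normalization, after removal of other RNA classes. The deposited TPM, used as a score and only to check the counts, are scaled to the authors' miRNA tags. Shares of short reads and RNA classes were computed from the read numbers in the authors' summaries. The deposited FPKM are the authors' stage means, without replicates. The authors' mean TPM, fold changes, p-values and rho were not used.

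Counts of all 9 libraries entered one fit of edgeR 4.0.16 in R 4.3.3 (TMM, filterByExpr by stage, quasi-likelihood test without covariates, Benjamini-Hochberg over 214 references). Standard errors were derived from the fold change and the F statistic. Arm ratios were tested with limma 3.58.1 on log2 of count plus 0.5 over 10 families. For references without larval counts, the mean CPM of PL was set over the mean of a floor of 3 counts per library. RNAduplex 2.7.2 folded the arms. Both tests were tested on simulated data.

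Named were the members, references sharing a seed, the 3 references most like each member, listed protostome families, c119967_g1, described targets of both arms, the 10 highest targets of each arm with a Swiss-Prot description and examples of keyword groups. The members and lists were chosen with earlier results of these data known. Alternatives were other library sizes, DESeq2 1.42.0, limma, other filters, no fold limit, 6 libraries, a replicate block, each library left out, and other pseudocounts. All replicate pairs differed by more than counting noise. No genome was used, so positions are not given.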

Additional observations from a re-analysis of the deposited data

How the results depend on the processing

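miR-1175-y was called higher in PL in all 17 alternatives, with log2 fold changes of 3.86 to 4.76 against CL and 3.80 to 4.69 against Pre-CL, and miR-1175-x in all 16, with 2.45 to 3.34 and 1.78 to 2.61. Adding the counts of miR-755-y to miR-1175-y, chosen after seeing the data, gave 4.24 and 4.22. The log2 ratio of the arms stayed called in limma, at 1.11 to 1.70 between PL and CL and 1.92 to 2.37 between PL and Pre-CL, and missed the threshold (p = 0.1 for 1.41 and for 2.09) in the exact permutation test, by its construction.

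The calls near a limit moved. Leaving out 1 library gave -1.01 to -0.38 for miR-1175-x between CL and Pre-CL, called without Pre-CL 3. miR-1175-y between CL and Pre-CL stayed at about 0 and changed sign with DESeq2 (0.058), limma (0.0058), a filter on a mean over 10 CPM of clean reads (0.0047) and no filter (0.0498), and ran between -0.37 and 0.35 with 1 library left out (0.23 without CL 1, 0.35 without Pre-CL 1 and 0.07 without Pre-CL 2). miR-750-y was called lower in PL than in CL with the mean over 10 (-1.25), only the 6 libraries compared (-1.08) or no fold limit (-0.93), and ran between -1.16 and -0.76 with 1 library left out. Against Pre-CL it was called with the mean over 10 (-1.04) and no fold limit (-0.75). The causes were not tested.

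Counts of called references changed with the filter and scaling. The mean over 10, which tests fewer references, left 11 higher and 9 lower between CL and Pre-CL, 19 higher between PL and CL, and 22 higher and 30 lower between PL and Pre-CL. Total counts as library size gave 76 higher and 17 lower between PL and CL, and miRNA tags 75 and 19, with 31 lower between PL and Pre-CL under both. With 1 library left out, 10 to 27 references were called lower between CL and Pre-CL, the 10 without CL 2 or CL 3. Targets with a description numbered 75, 43 and, for both arms, 5.

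The replicate numbers were not taken as pairing the libraries, since same-numbered libraries had correlations of -0.35 to 0.29, with 4 of 9 pairs over 0.1. With the number as a replicate block, the log2 fold changes between PL and CL were 4.18 for miR-1175-y, 2.80 for miR-1175-x and -0.94 for miR-750-y, and the arm ratio 1.41. The block changed no call of a member. It called 20 higher and 16 lower between CL and Pre-CL, 39 and 29 between PL and CL, and 61 and 44 between PL and Pre-CL, and 1 of 9 libraries correlated best with its own number.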
